A study of Mus musculus with 6 samples.

Results

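A set of 10 genes of meiotic break formation were followed in whole ovaries of the *Srsf1* conditional knockout mouse, namely the HORMA-domain genes *Hormad1* and *Hormad2*, the AAA+ ATPase gene *Trip13*, the break-forming genes *Spo11*, *Ccdc36* (now *Iho1*), *Mei1*, *Mei4*, *Rec114* and *Ankrd31*, and the hotspot gene *Prdm9*. They were chosen by name for their place in the pathway, with earlier results of these data known, as 10 of the 54532 genes of the deposited table. All 10 passed the minimum for testing, which 17180 genes of the table passed. RNA was taken from ovaries of C57BL/6 mice at 16.5 dpc, in 3 control (Ctrl) and 3 conditional knockout (cKO) libraries. The labels give the Ctrl genotype as wild type. The cKO mice came from *Stra8-GFPCre* mice crossed with *Srsf1* Fl/Fl mice, in which Cre removes floxed exons of *Srsf1* in germ cells from about the start of meiosis, while the somatic cells of the ovary keep the gene. Expression is given as FPKM, which corrects the reads of each gene for gene length and library size. For these genes the length is that of all annotated exons and not of the transcript expressed. Levels of different genes can therefore be set side by side only approximately.

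In fetal ovaries, oocytes enter meiosis and cut their own DNA so that homologous chromosomes can pair and recombine. SPO11 makes the double-strand breaks together with its partner TOPOVIBL, and it is brought to the chromosome axis by REC114, MEI4, IHO1, ANKRD31 and MEI1. HORMAD1 and HORMAD2 coat the axis of chromosomes that have not synapsed, where HORMAD1 recruits IHO1, and TRIP13 strips both HORMA proteins once synapsis has occurred. PRDM9 marks histones at hotspots, which sets where the breaks are made. SRSF1 is a splicing factor of the SR family.

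The starts of these genes were read in RefSeq promoters of GRCm38.p6, which cover 250 bases before and 50 bases after each start, to show which known meiotic and cell cycle motifs lie before them. Promoters were found for 9 of the 10 genes, all but *Spo11*. Both strands were searched for the E-box CACGTG, the E2F-type site GGCGGGA and the STRA8-MEIOSIN-type site CNCCTCAG, where N is any base, and 4 genes held at least 1 of them. The stretches below show those matches in capitals, 5′ to 3′ on the strand of each gene, and are printed because only these 4 of the 9 genes hold one.
Hormad1: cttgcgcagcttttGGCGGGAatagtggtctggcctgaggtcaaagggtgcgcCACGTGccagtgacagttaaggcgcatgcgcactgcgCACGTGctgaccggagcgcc
Rec114: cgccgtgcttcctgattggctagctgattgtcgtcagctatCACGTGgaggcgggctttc
Hormad2: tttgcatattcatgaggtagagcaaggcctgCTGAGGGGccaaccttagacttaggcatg
Prdm9: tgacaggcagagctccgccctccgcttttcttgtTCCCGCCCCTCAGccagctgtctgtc

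The *Hormad1* stretch lies at chr3:95559567-95559676 on the plus strand, directly before the start given in the deposited table, and holds GGCGGGA and 2 copies of CACGTG. The *Rec114* stretch is at chr9:58741560-58741619 on the minus strand with 1 CACGTG, before a RefSeq start 2405 bases inside the gene of the deposited table. In *Hormad2*, at chr11:4441163-4441222 on the minus strand, CTGAGGGG is a match to CNCCTCAG on the other strand. In *Prdm9*, at chr17:15564375-15564434 on the minus strand, TCCCGCC is GGCGGGA on the other strand, and it shares 2 bases with a CNCCTCAG match. A further CNCCTCAG of *Prdm9* lies 14 bases after the start, and a second RefSeq start, 1023 bases away, has another GGCGGGA. No match was found in the windows of *Ccdc36*, *Mei1*, *Mei4*, *Ankrd31* and *Trip13*. The RefSeq starts of *Ccdc36* and *Mei1* lie 3342 and 12480 bases from those of the deposited table. Over the 27025 genes with a RefSeq promoter, 8.09% held CACGTG, 12.7% held GGCGGGA and 9.12% held CNCCTCAG. The share that held at least 1 of these motifs was not taken, so the count of genes with a match has no background here. A match of letters is a description of the sequence and not a site shown to be bound.

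The reads on genes were between 15548757 and 16756795 per Ctrl library and between 14212164 and 16784241 per cKO library. The targeted gene, *Srsf1*, was at 80.2, 70.1 and 63.1 FPKM in Ctrl 1, 2 and 3 and at 32.4, 37.0 and 36.4 FPKM in cKO 1, 2 and 3, in the direction of the labels. Its log2 difference was -0.99 (unadjusted p of 1.58e-04 in limma). Even this gene did not pass after Benjamini-Hochberg adjustment (adjusted p of 0.497 in limma), so a high adjusted p is not evidence of no change. The 8 markers of pregranulosa cells, the supporting cells of the fetal ovary, were above 1 FPKM in every library, and summed to between 431 and 507 FPKM in Ctrl and between 432 and 564 FPKM in cKO. Protocol text in the labels names retina, and 6 retina markers summed to between 0.964 and 2.33 FPKM, with *Crx* listed at 0 throughout. Adult globin transcripts took between 0.387% and 1.68% of reads in Ctrl and between 0.121% and 0.794% in cKO. Stroma, endothelium and macrophage markers summed to at most 340, 61.0 and 17.7 FPKM, and at least 263 FPKM for stroma and 48.7 FPKM for endothelium, over all 6 libraries, and 2 mesonephros markers to between 1.65 and 3.56 FPKM.

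Markers of germ cells also differed widely between libraries of one group. The mean log2(FPKM + 1) of 8 general germ cell genes (*Ddx4*, *Dazl*, *Mael*, *Rnf17*, *Dppa3*, *Tdrd1*, *Taf7l* and *Elavl2*) was 2.86, 3.56 and 4.44 in Ctrl 1, 2 and 3. In cKO 1, 2 and 3 it was 4.57, 3.51 and 4.85. Ctrl 1, Ctrl 2 and cKO 2 were low and Ctrl 3, cKO 1 and cKO 3 were high, so the groups overlapped. *Dazl*, which encodes an RNA-binding protein of germ cells, and *Dppa3* were themselves past the unadjusted limit, higher in cKO (log2 differences 1.60 and 1.34, unadjusted p of 0.0345 and 0.0312 in limma). In whole ovaries, a smaller number of germ cells, less RNA per germ cell and a different meiotic stage cannot be told apart. The 10 genes are therefore given both per library size and relative to this list.

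Whether loss of *Srsf1* changed the levels of the HORMA and break-forming genes was asked in the fit across all 17180 genes. Of the 10 genes, 9 were above 0 on the log2 scale, but only *Ccdc36* passed an unadjusted p below 0.05 in limma, and no gene passed after Benjamini-Hochberg adjustment (adjusted p between 0.978 and 0.999). Over all genes tested, 4.43% passed the unadjusted limit, and 2.68% passed and were higher in cKO. The median log2 difference, cKO minus Ctrl, was 0.60 over the 10 genes and 0.60 over the 8 germ cell genes, beside -0.01 over all genes tested. The plot of FPKM by library shows the order of levels and the overlap of the groups.

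**Figure D1:**
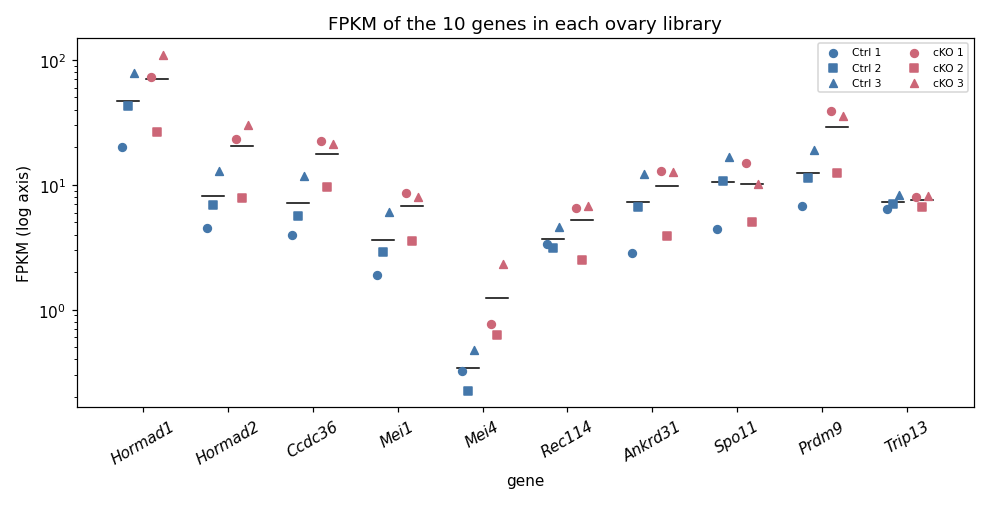
FPKM of the 10 genes (y axis, log scale) in the 3 Ctrl (blue) and 3 cKO (red) libraries, with a marker shape for each replicate number and a black line at each group mean. *Mei4* was the one gene whose cKO libraries all lay above its Ctrl libraries, and *Trip13* spanned the narrowest range, 6.41 to 8.26 FPKM.

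*Hormad1* (ENSMUSG00000028109), on chromosome 3 from 95559677 to 95587671 with 16 exons, was the most abundant of the genes in every library. It was at 20.2, 42.9 and 78.0 FPKM in Ctrl 1, 2 and 3 and at 73.0, 26.7 and 110 FPKM in cKO 1, 2 and 3. The levels followed the germ cell list, with Ctrl 1 and cKO 2 lowest and cKO 3 highest, and the groups overlapped. Means were 47.0 ± 29.2 (SD, n = 3) for Ctrl and 69.9 ± 41.8 FPKM for cKO. The log2 difference of 0.54 was smaller than its standard error of 0.63 (95% interval -0.95 to 2.04, adjusted p = 0.982 in limma).

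*Hormad2* (ENSMUSG00000020419), on chromosome 11 from 4345814 to 4441105 with 14 exons, encodes the HORMA protein that takes part in the surveillance of unsynapsed chromosomes. It was at 4.54, 6.87 and 12.8 FPKM in Ctrl 1, 2 and 3 and at 23.1, 7.87 and 30.1 FPKM in cKO 1, 2 and 3. Here cKO 1 and cKO 3 stood above every Ctrl library, and cKO 2 lay between Ctrl 2 and Ctrl 3. Means were 8.07 ± 4.26 (SD, n = 3) and 20.3 ± 11.4 FPKM, a log2 difference of 1.16 with a standard error of 0.52 (95% interval -0.09 to 2.40). This missed the unadjusted limit (unadjusted p of 0.0645 in limma). Leaving out single libraries moved the difference between 0.79 and 1.70, past the limit without Ctrl 3 and without cKO 2.

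*Trip13* (ENSMUSG00000021569), on chromosome 13 from 73911347 to 73937784, showed the smallest spread of the genes. It was at 6.41, 7.03 and 8.26 FPKM in Ctrl 1, 2 and 3 and at 7.92, 6.66 and 8.09 FPKM in cKO 1, 2 and 3. The log2 difference was 0.06 with a standard error of 0.14 and a 95% interval of -0.27 to 0.39. The germ cell mean spanned 1.99 on the log2 scale over the same libraries.

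*Ccdc36* (ENSMUSG00000047220), on chromosome 9 from 108403611 to 108428484 with 7 exons, encodes IHO1, the partner of HORMAD1 on the axis. It was at 3.97, 5.64 and 11.7 FPKM in Ctrl 1, 2 and 3 and at 22.2, 9.69 and 21.4 FPKM in cKO 1, 2 and 3. The cKO 2 library fell below Ctrl 3, and the other cKO libraries lay above all Ctrl libraries. Mean FPKM rose from 7.12 ± 4.09 (SD, n = 3) to 17.8 ± 7.01, 2.50-fold, and on the log2 scale by 1.24 with a standard error of 0.43 (95% interval 0.22 to 2.26). The unadjusted p was 0.0236 and the Benjamini-Hochberg adjusted p 0.978 in limma, and the exact permutation test, two-sided, gave p = 0.2, where 3 libraries against 3 cannot go below 0.1. *Ccdc36* did not pass the unadjusted limit without Ctrl 1, Ctrl 2, cKO 1 or cKO 3 (unadjusted p of 0.0736, 0.0675, 0.0772 and 0.0757 in limma), with differences between 0.95 and 1.15.

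*Mei4* (ENSMUSG00000043289), on chromosome 9 from 81863670 to 82206007, and *Rec114*, its partner, were the genes with the fewest reads. *Mei4* was at 0.324, 0.225 and 0.472 FPKM in Ctrl 1, 2 and 3 and at 0.769, 0.622 and 2.32 FPKM in cKO 1, 2 and 3, which rest on 20, 15 and 34 and on 49, 43 and 136 reads. Every cKO library lay above every Ctrl library, as was the case for 4.59% of all genes tested. The ratio of means was 3.64, and the log2 difference was 0.67 at a pseudocount of 1, which understates changes of low values. The unadjusted p was 0.0575 in limma, and 0.041 at a pseudocount of 0.1, where the log2 difference was 1.42. It was 1.61 in voom on the recovered reads (unadjusted p of 0.0302 in limma). The cKO 3 library had the highest value, and without it the difference was 0.34 (unadjusted p of 0.123 in limma).

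*Rec114* (ENSMUSG00000074269), on chromosome 9 from 58652850 to 58743964, was at 3.34, 3.10 and 4.57 FPKM in Ctrl 1, 2 and 3 and at 6.53, 2.52 and 6.73 FPKM in cKO 1, 2 and 3. The lowest and the highest library were both cKO, and between 54 and 129 reads stood behind each value. The log2 difference was 0.35 with a standard error of 0.32. *Rec114* shares 344 of its 1277 exonic bases with *Nptn* on the opposite strand, and no source used here says whether the counting was stranded, so its level is uncertain. None of the other 9 genes shares exonic bases with another gene.

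*Mei1* (ENSMUSG00000068117), on chromosome 15 from 82069996 to 82126814 with 31 exons, was at 1.90, 2.92 and 6.00 FPKM in Ctrl 1, 2 and 3. In cKO 1, 2 and 3 it was at 8.60, 3.53 and 8.01 FPKM, a log2 difference of 0.77 with a standard error of 0.41 (unadjusted p of 0.101 in limma). *Ankrd31* (ENSMUSG00000109561), on chromosome 13 from 96748272 to 96910039, is needed for breaks in the pseudoautosomal region of the sex chromosomes. It was at 2.85, 6.65 and 12.3 FPKM in Ctrl 1, 2 and 3 and at 12.9, 3.93 and 12.6 FPKM in cKO 1, 2 and 3. For both genes cKO 1 and cKO 3 lay above the Ctrl libraries, by little in *Ankrd31*, whose log2 difference was 0.42 with a standard error of 0.56.

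*Spo11* (ENSMUSG00000005883), on chromosome 2 from 172977700 to 172993576 with 10 exons, encodes the enzyme that makes the breaks, and showed no clear direction between the groups per library size. It was at 4.39, 10.7 and 16.7 FPKM in Ctrl 1, 2 and 3 and at 15.0, 5.02 and 10.2 FPKM in cKO 1, 2 and 3. Its highest library was Ctrl 3, although the germ cell list was higher in cKO 1 and cKO 3. The log2 difference was -0.02 with a standard error of 0.51 and a 95% interval of -1.23 to 1.19. With each library left out it ran from -0.49 without Ctrl 1 to 0.37 without Ctrl 3 or cKO 2.

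*Prdm9* (ENSMUSG00000051977), on chromosome 17 from 15543079 to 15564354 with 13 exons, was the next most abundant gene after *Hormad1*. Libraries Ctrl 1, 2 and 3 had 6.76, 11.4 and 19.1 FPKM, and cKO 1, 2 and 3 had 38.7, 12.3 and 35.8 FPKM. The cKO 1 and cKO 3 libraries were far above the Ctrl libraries, while cKO 2 lay inside their range. Means were 12.4 ± 6.24 (SD, n = 3) and 28.9 ± 14.5 FPKM, a log2 difference of 1.11 with a standard error of 0.50 (unadjusted p of 0.0643 in limma, 0.0484 in voom on the recovered reads).

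**Figure D2:**
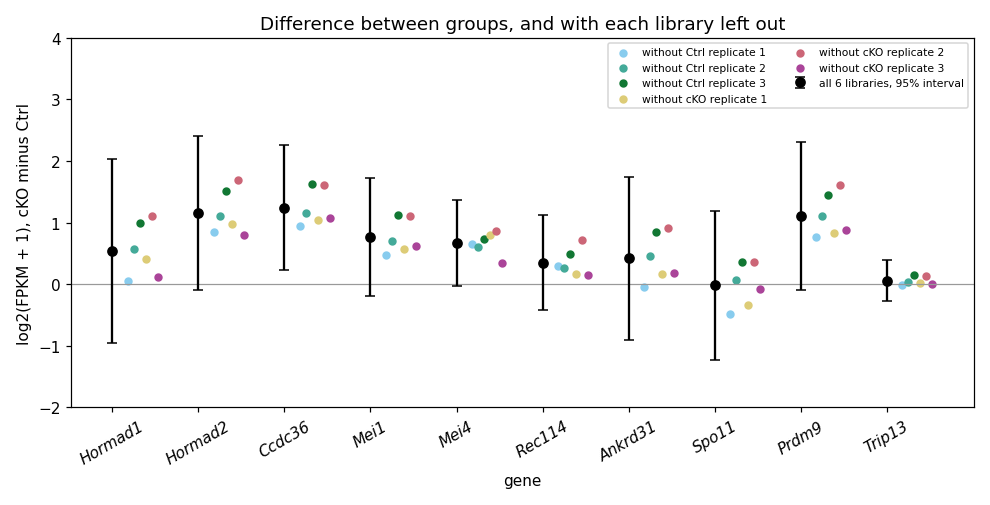
Difference of log2(FPKM + 1), cKO minus Ctrl (y axis), for each of the 10 genes over all 6 libraries (black, with the 95% interval of limma) and with each library left out (coloured points). The interval of *Ccdc36* lies above 0 and the other 9 cross it, and leaving out cKO 2 gives the highest or nearly the highest value for each gene.

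The count of genes past the unadjusted limit turned on single libraries. Without cKO 2, the cKO library with the lowest germ cell mean, 6 of the 10 genes passed (*Hormad2*, *Ccdc36*, *Mei1*, *Mei4*, *Rec114* and *Prdm9*), all higher in cKO, while 14.5% of all genes tested passed. Without Ctrl 3, the Ctrl library with the highest germ cell mean, 4 passed (*Hormad2*, *Ccdc36*, *Mei1* and *Prdm9*), beside 6.85% of all genes. Without Ctrl 1, Ctrl 2, cKO 1 or cKO 3, 0 passed, and all genes tested passed at between 2.12% and 3.64%.

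Within the Ctrl group, the mean levels ran from *Hormad1* through *Prdm9*, *Spo11*, *Hormad2*, *Ankrd31*, *Trip13*, *Ccdc36*, *Rec114* and *Mei1* to *Mei4*. *Hormad1* was above *Prdm9*, *Prdm9* above *Spo11*, *Hormad2* above *Ankrd31*, *Ccdc36* above *Rec114* and *Mei1* above *Mei4* in 6 of 6 libraries. The neighbours *Spo11* and *Hormad2*, *Ankrd31* and *Trip13*, *Trip13* and *Ccdc36*, and *Rec114* and *Mei1* changed places between libraries. In the cKO group *Spo11* moved from rank 3 to rank 5 by its mean, and *Ccdc36* moved from rank 7 to rank 4.

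Set against the germ cell list, the genes did not all lie on the same side. Whether meiotic stage differed between the libraries was not tested. The mean log2(FPKM + 1) of the 8 germ cell genes was subtracted from that of each gene in the same library, which left 4 of the 10 genes with no overlap between the groups. *Hormad2*, *Ccdc36* and *Prdm9* were higher in every cKO library and *Spo11* was lower in every cKO library. Over all genes tested, 0.204% lay above in every cKO library and 2.61% lay below on this scale, where the median log2 difference of all genes was -0.70. Of the 17180 genes tested, 2833 rose with the germ cell list at Pearson's r of 0.7 or more over the 6 libraries, and the same shares were taken over these. Of those, 1.16% lay above and 4.31% lay below. The limit on r takes no account of how steeply a gene rose. *Trip13* met it at r of 0.96 with the narrowest range of FPKM of the 10 genes, so these shares are not those of genes with a like slope. The limit of 0.7 was set after the values of the 10 genes, all at or above 0.71, had been seen.

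Relative to the list, *Spo11* was at -0.43, -0.01 and -0.29 in Ctrl 1, 2 and 3 and at -0.57, -0.92 and -1.37 in cKO 1, 2 and 3. *Prdm9* was at 0.09, 0.07 and -0.11 in Ctrl and at 0.74, 0.23 and 0.35 in cKO. *Ccdc36* was at -0.55, -0.83 and -0.76 in Ctrl and at -0.03, -0.09 and -0.37 in cKO, and here cKO 2, low on the scale of FPKM, lay with the other cKO libraries. *Hormad2* was at -0.39, -0.58 and -0.65 in Ctrl and at 0.02, -0.36 and 0.10 in cKO, with Ctrl 1 close to cKO 2. The mean differences, cKO minus Ctrl, were -0.71 for *Spo11*, 0.42 for *Prdm9*, 0.55 for *Ccdc36* and 0.46 for *Hormad2* (exact permutation test, two-sided, p = 0.1 for each, the smallest p that 3 libraries against 3 allow). The other 6 genes overlapped, with differences of -0.15 for *Hormad1*, 0.07 for *Mei1*, -0.03 for *Mei4*, -0.34 for *Rec114*, -0.27 for *Ankrd31* and -0.64 for *Trip13*. The pseudocount of 1 flattens low values, so on this scale *Mei4* is the hardest of the genes to read.

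**Figure D3:**
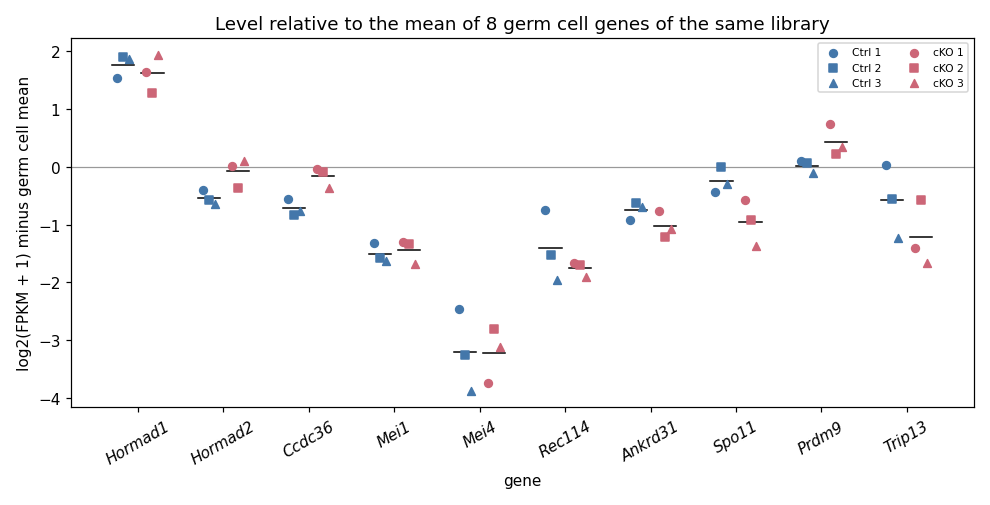
Level of each gene relative to 8 germ cell genes of the same library (y axis, difference of log2(FPKM + 1)) in Ctrl (blue) and cKO (red), with black lines at group means. The groups do not overlap for *Hormad2*, *Ccdc36* and *Prdm9*, higher in cKO, and for *Spo11*, lower in cKO.

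The same 4 genes did not overlap, in the same directions, when *Ddx4* alone or the list without *Dazl* and *Dppa3* was the reference, both of which were chosen after the values had been seen. Both references are parts of the same list, so these results are not independent of those above. The share over all genes tested was not taken for them, so the count of 4 has no background on these scales. For *Spo11*, the mean difference was -0.50 against *Ddx4* alone and -0.45 against the shortened list. The median log2 difference of all genes tested was -0.50 and -0.44 on these scales. With the germ cell mean as a covariate in limma, *Ccdc36* was higher in cKO (log2 difference 0.64, unadjusted p of 0.00448) and *Spo11* was lower (log2 difference -0.69, unadjusted p of 0.0413), 2 of the 10 genes beside 5.48% of all genes tested. In that fit *Hormad1* and *Ankrd31* were at -0.36 and -0.38 and did not pass (unadjusted p of 0.0518 and 0.0572 in limma), and no gene passed after adjustment.

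The same contrast was also written without a reference list, as the ratio of FPKM between genes of one library. The list cancels in such a ratio. Apart from the pseudocount, the ratios of *Hormad2*, *Ccdc36* and *Prdm9* to *Spo11* therefore follow from their levels relative to the list, and are not separate support. Of the 45 ratios among the 10 genes, 17 (37.8%) did not overlap between the groups. Over every pair of genes tested 9.29% did not overlap, and over every pair of genes that correlated with the germ cell list 14.6%. The 45 ratios share genes, so they are not independent, and they were looked at after the values above had been seen. *Spo11* was lower in every cKO library against 6 of the 9 other genes, namely *Hormad1*, *Hormad2*, *Ccdc36*, *Mei1*, *Ankrd31* and *Prdm9*, and overlapped against *Mei4*, *Rec114* and *Trip13*. Over all genes tested, the ratio to *Spo11* was higher in every cKO library for 1.96%, and over the genes that correlated with the germ cell list for 10.2%.

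*Prdm9* was 1.54, 1.07 and 1.15 times the level of *Spo11* in Ctrl 1, 2 and 3 and 2.58, 2.46 and 3.52 times in cKO 1, 2 and 3. *Ccdc36* was 0.904, 0.528 and 0.705 times *Spo11* in Ctrl and 1.48, 1.93 and 2.10 times in cKO, so that it passed from below to above the FPKM of *Spo11*. *Hormad2* was at 0.642 to 1.03 times *Spo11* in Ctrl and at 1.54 to 2.96 times in cKO. *Mei1*, at 0.273 to 0.433 times in Ctrl and 0.573 to 0.788 times in cKO, stayed below *Spo11* throughout. *Hormad1* was at 4.01 to 4.68 times in Ctrl and 4.87 to 10.8 times in cKO, where Ctrl 3 and cKO 1 lay close together. Each of these ratios gave p = 0.1 in the exact permutation test, two-sided, the smallest possible, and with 45 ratios none could pass an adjustment.

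**Figure D4:**
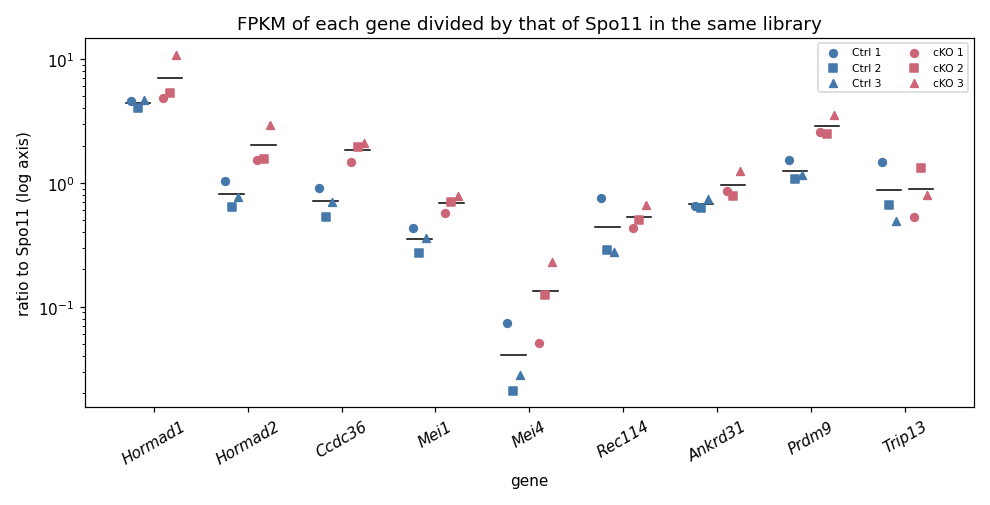
FPKM of the other 9 genes divided by that of *Spo11* in the same library (y axis, log scale) in Ctrl (blue) and cKO (red), with black lines at group means. For *Hormad1*, *Hormad2*, *Ccdc36*, *Mei1*, *Ankrd31* and *Prdm9* every cKO library lies above every Ctrl library.

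The ratio of *Hormad1* to *Hormad2* was another of the 17 of 45 that did not overlap between the groups. It gave p = 0.1 in the exact permutation test, two-sided, the smallest possible. Over every pair of genes that correlated with the germ cell list, 14.6% did not overlap. *Hormad1* was 4.45, 6.25 and 6.10 times the level of *Hormad2* in Ctrl 1, 2 and 3 and 3.16, 3.39 and 3.66 times in cKO 1, 2 and 3. The ratio was 5.60 ± 1.00 (SD, n = 3) in Ctrl and 3.40 ± 0.252 in cKO, and it was similar in cKO 2 and cKO 3, although *Hormad1* was at 26.7 and 110 FPKM there.

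Over the 6 libraries, each gene varied with the germ cell list, at Pearson's r between 0.71 for *Mei4* and 0.98 for *Mei1*, as a description over 6 points that share library and depth. *Spo11* was at 0.79. Outside the 10 genes, the 3 whose levels were most like their mean pattern were *Gm960*, *Nif3l1* and *Catspere2*, at r of 0.999, 0.997 and 0.997 over the same 6 libraries. *Gm960* encodes TOPOVIBL, the partner of SPO11, and was at 2.68, 4.12 and 6.48 FPKM in Ctrl 1, 2 and 3 and at 8.05, 3.91 and 9.05 FPKM in cKO 1, 2 and 3. It was highest in cKO 3, where *Spo11* was below its level in Ctrl 2 and Ctrl 3.

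Other genes of the pathway were read from lists of break partners, the chromosome axis, other HORMA-domain and remodelling genes, and the checkpoint. Of 33 genes, 31 were tested, and 1 (3.23%) passed the unadjusted limit in limma, beside 4.43% of all genes tested, so the count was no higher than over all genes. *Morc2b* and *Trp63* were below the minimum. Among 11 break partners tested, which include the end-processing genes *Mre11a*, *Rad50*, *Nbn* and *Rbbp8*, 0 passed, and the log2 differences lay between -0.07 and 0.73 with a median of 0.25. *Zcwpw1*, whose product reads the marks that PRDM9 makes, was at 15.5, 27.3 and 45.6 FPKM in Ctrl 1, 2 and 3 and at 66.0, 26.5 and 52.8 FPKM in cKO 1, 2 and 3, a log2 difference of 0.73 per library size and of 0.036 relative to the germ cell list.

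Among 7 genes of the axis and its cohesins, 0 passed, with a median of 0.53. *Rad21l*, a meiotic cohesin subunit, had the highest difference of the 4 lists, at 8.08, 12.5 and 25.5 FPKM in Ctrl 1, 2 and 3 and at 59.4, 14.9 and 50.6 FPKM in cKO 1, 2 and 3 (log2 difference 1.31, unadjusted p of 0.0624 in limma). Relative to the germ cell list, its difference was 0.62, and with that list as a covariate 0.49 (unadjusted p of 0.0831 in limma). *Rec8*, another cohesin subunit, ran the other way over the libraries, at 50.7 FPKM in Ctrl 1 and 47.5 FPKM in cKO 2 and at 12.4 to 20.8 FPKM in the other libraries. The 5 other HORMA-domain and remodelling genes, which also act outside meiosis, lay between -0.19 and 0.09, and 0 passed.

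Of 8 checkpoint genes tested, *Chek2*, the kinase that signals unrepaired breaks in oocytes, was lower in cKO. It was at 12.5, 8.64 and 6.22 FPKM in Ctrl 1, 2 and 3 and at 5.34, 5.04 and 4.79 FPKM in cKO 1, 2 and 3. The groups did not overlap, but the share of all genes tested with every cKO library below every Ctrl library was not taken. The log2 difference was -0.70 with a standard error of 0.23 (unadjusted p of 0.0192 and adjusted p of 0.978 in limma). Its highest values were in the Ctrl libraries with the lowest germ cell means. Relative to the germ cell list its difference was -1.39, where the median of all genes was -0.70. With the germ cell mean as a covariate, it was at -0.47 and did not pass (unadjusted p of 0.0546 in limma), nor did it pass without cKO 3 (unadjusted p of 0.0541). The other 7 checkpoint genes lay between -0.11 and 0.63 and did not pass.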

How the data were processed

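Poly(A) RNA of whole ovaries was sequenced in 6 libraries, 3 Ctrl and 3 cKO, grouped by the sample labels. The authors aligned reads to the mouse genome (mm10) with HISAT2 2.0.5, counted them with featureCounts and deposited FPKM values, that is, reads corrected for gene length and library size. The sources used here name neither the annotation release nor the strand setting. Multiplied by gene length, 100% of values were whole reads to within 0.05, which gave the reads behind each value. No pair of libraries held the same values. The 3 replicates per group were biological in the study, and the sources used here do not say whether ovaries were pooled.

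The limma package (3.58.1, R 4.3.3) compared log2(FPKM + 1) between groups, two-sided, with an intensity trend and no other term, for genes whose FPKM averaged 0.5 or more across libraries. An unadjusted p below 0.05, the limit the study used, was taken for counts of genes, and p was adjusted over all genes tested by the Benjamini-Hochberg method. A log2 difference on this scale understates the change of low values. Exact permutation tests over libraries cannot go below p = 0.1 with 3 against 3. The fit was tested on simulated data. Alternatives changed the pseudocount (0.1, 0.5), the minimum (none, 1 FPKM), the scaling (median-ratio, quantile) or the model (limma voom on recovered reads, a fit without trend, a replicate block), took the germ cell list as a covariate or subtracted it, and left out each library. The gene rule named all 10 members, *Srsf1*, list genes that passed or whose role is described, and the 3 genes most like the members. The members and lists were chosen with earlier results of these data known. The labels' protocol text names retina, while the tissue field names ovary. Tables and figures were made in Python 3.11.15 (scipy 1.17.1, pandas 2.3.3, numpy 2.4.6, matplotlib 3.10.9). Exons were taken from the GENCODE annotation of GRCm38, whose coordinates of the 10 genes equal those of the deposited table, and promoters from RefSeq on GRCm38.p6.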

Additional observations from a re-analysis of the deposited data

How the results depend on the processing

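With all libraries, 1 of the 10 genes passed the unadjusted limit in limma. The number was 2 at a pseudocount of 0.1, at one of 0.5, after quantile normalization and with the germ cell list as a covariate, 3 in voom, 0 relative to the germ cell list and between 0 and 6 with each library left out. Over all genes tested, 4.38% passed at a pseudocount of 0.1, and 4.42% at one of 0.5 and after quantile normalization. The share was 5.48% with the covariate, 4.21% in voom and 2.17% relative to the germ cell list. On the scale relative to the germ cell list, every gene carries the spread of that list, so p-values of that fit say little about single genes. Of all genes tested, 761 passed, and 1331 with no minimum on FPKM, where 33797 genes were tested, 373 relative to the germ cell list and between 364 (Ctrl 2 left out) and 2493 (cKO 2 left out). From the 4 pathway lists, 1 gene passed, and 2 with the germ cell covariate (*Sycp3* and *Rad1*, both lower) and between 0 without cKO 3 and 14 without cKO 2. 

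With the replicate block, 3 of the 10 genes passed (*Hormad2*, *Ccdc36* and *Mei4*), 2 of the list genes (*Rad21l* and *Chek2*) and 681 of all genes tested (3.96%). Deviations of same-numbered libraries correlated at -0.39, -0.03 and 0.12 over genes, and not every library correlated best with its own number. These values gave no sign that the numbers pair the samples. With so few libraries per group they cannot exclude pairing.

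Signs turned for 6 of the 10 genes, none of which passed the limit with all libraries. With the germ cell covariate, the log2 difference was -0.36 for *Hormad1*, -0.020 for *Rec114*, -0.38 for *Ankrd31* and -0.080 for *Trip13*. Relative to the germ cell list it was -0.15 for *Hormad1*, -0.027 for *Mei4*, -0.34 for *Rec114*, -0.27 for *Ankrd31* and -0.64 for *Trip13*. Relative to *Ddx4* alone, *Rec114*, *Ankrd31* and *Trip13* were at -0.14, -0.068 and -0.43, and relative to the list without *Dazl* and *Dppa3* at -0.085, -0.014 and -0.38. With each library left out, *Spo11* was between -0.49 and 0.37, *Ankrd31* between -0.044 and 0.92 and *Trip13* between -0.015 and 0.15. The cause of these changes was not tested. *Hormad2*, *Ccdc36*, *Mei1* and *Prdm9* stayed above 0 in every alternative. *Mei4* was below the minimum of 1 FPKM and has no value there. Depth limits *Mei4* most, with 15 reads in its lowest library.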
